A study of Mus musculus with 36 samples.

Results

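The 4 h response of T cells without MALT1 protease activity was read from 8 of the 36 arrays in the series, 4 of cells stimulated for 4 h and 4 of the same genotype before stimulation (0 h), chosen by their sample labels. The cells were Malt1PM/- (PM), so their one Malt1 allele carries the paracaspase mutation and the other is deleted. They were set beside Malt1+/- cells (het, one wild-type allele over the deletion) and Malt1-/- cells (KO), each again with 4 arrays at 0 h and 4 at 4 h, and 4 PM arrays at 1 h were used as well. All mice share the label B6.C-Tg(CMV-cre)1Cgn/J, a deleter strain in which the CMV promoter drives Cre, and neither age nor pooling is stated. Protocols in the labels cover purified CD4+ T cells as well as total T cells left after bead depletion of other cells, and stimulation by PMA with ionomycin or by plate-bound anti-CD3 and anti-CD28. They do not say which was used here. The labels number the replicates of each group 1 to 4 (the design text speaks of 3), and nothing says whether these came from separate mice. The p-values therefore measure only how far these samples spread, which may be technical.

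MALT1 acts with BCL10 downstream of the T cell receptor. As a scaffold it recruits TRAF6 and leads to IKK and NF-kB. As a paracaspase it cuts inhibitors of the response, among them A20 (Tnfaip3), CYLD, RelB, and the RNA-binding proteins Regnase-1 (Zc3h12a) and Roquin. In the PM allele the second function is removed and the scaffold is kept.

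The 8 arrays each detected 8104 to 9931 of the 25697 probes, and 7585 genes of the whole series were tested. Arrays of one group correlated at 0.935 to 0.988 at 0 h and at 0.954 to 0.981 at 4 h, and arrays of the 2 groups with each other at 0.83 to 0.90. Replicate 4 stood apart. On its 0 h array 362 genes lay more than 1 log2 unit below the other 3 arrays, where the other 0 h arrays had 1 to 8 such genes, and on its 4 h array 147 did, 125 of them in both. Replicate 3 at 0 h carried high levels of stress and early response genes, with Fos at 10.89 (log2 signal, as all levels below) against 6.49 to 8.73 and Fosb at 7.78 against 4.42 to 4.50. The T cell receptor chain Cd3e was between 11.63 and 11.71 at rest. Cd8b1, a chain of the CD8 co-receptor, read 10.21, 10.10, 10.42 and 10.83 and Cd4 6.88, 6.47, 6.47 and 5.28 at 0 h, so a transcript of CD8 T cells was measured on every array. Marker genes of other cell types, described further on, were measured too, and many of those of B, myeloid, NK and CD8 T cells fell from 0 to 4 h. In RNA of a whole preparation, fewer cells of a type and less RNA per cell cannot be told apart.

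Malt1 itself, on chromosome 18, rose in PM cells. It read 4.88, 5.06, 5.17 and 5.74 at 0 h and 5.80, 6.10, 6.55 and 5.93 at 4 h in replicates 1 to 4, and the lowest 4 h array lay above the highest 0 h array by a small margin. The change was 0.88 ± 0.23 (log2, SE, n = 4 and 4, limma adjusted p = 0.00153), and it did not pass under median scaling, where arrays are brought to one median instead of being quantile normalized (adjusted p = 0.0922). Its mean went from 4.79 at 0 h (2 of 4 arrays detected) to 5.82 at 4 h (4 of 4) in KO cells, a change of 1.03, and it changed by 1.21 in het cells. The probe thus gave signal in cells labelled Malt1-/-. Since the position of the probe against the deletion and the mutation is not known, its level checks neither allele. Prkcb, a protein kinase C that acts in antigen receptor signalling of B cells, fell from 9.52, 9.39, 9.34 and 9.12 to 7.37, 7.46, 6.93 and 7.11, and the groups were far apart. Bcl10, the partner of MALT1, was highest at 1 h, with a mean of 10.01 at 1 h against 8.36 at 0 h and 9.09 at 4 h.

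Among mRNAs of proteins that MALT1 is known to cut, 9 of 12 measured rose (3 with median scaling) and 1 fell, beside 24% and 27.1% of all genes tested. The median change was 0.72, where that of all genes tested was -0.02. In het and KO cells the list's median was 0.80 and 0.51. Tnfaip3, the deubiquitinase A20 that ends NF-kB signalling, read 7.60, 7.12, 9.48 and 8.06 at 0 h and 10.83, 10.22, 10.50 and 9.89 at 4 h. The third 0 h array was high, and the groups did not overlap. Its change was 2.29 ± 0.45 (SE, limma adjusted p = 7.49e-05), from a peak of 11.60 at 1 h. Relb rose by 2.01 and Nfkbid, a nuclear IkB protein, by 2.08. Cyld, a deubiquitinase that restrains the same pathway, was the one that fell, from 10.17, 10.25, 10.19 and 9.89 to 9.31, 9.39, 9.31 and 9.21 (adjusted p = 4.92e-05, and 0.173 with median scaling). The Regnase-1 mRNA Zc3h12a stood at 5.58, 5.73, 5.75 and 5.73 before and 6.03, 6.53, 6.20 and 6.41 after 4 h, apart by little, with a change of 0.59 (adjusted p = 0.0183) that did not pass with median scaling (adjusted p = 0.511) or without replicate 4 in both groups (0.0617). Of 15 measured mRNAs that Regnase-1 or Roquin degrade, 14 rose, with a median of 2.08, and the 4 largest (Irf4, Il2ra, Tnf and Myc) are NF-kB targets as well. The median of these 15 was 2.88 in het and 1.91 in KO cells.

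In all 3875 of 7585 genes passed at 4 h (51.1%), 1817 up (24%) and 2058 down (27.1%). Most changes were small. Of the rises 1074 were under 1 log2 unit and 41 (0.541% of all genes) were at least 3, and of the falls 1158 and 32 (0.422%). The median size was 0.87 for rises and 0.91 for falls. For 3315 genes (43.7%; 20.1% up and 23.6% down) the ranges at 0 and 4 h were separate, and 4216 (55.6%) reached an unadjusted p under 0.05. With median scaling 869 rose and 1402 fell, and 2213 of the 3875 calls were kept. With replicate 4 left out of both groups 1672 rose and 1857 fell, and 3404 of the 3875 calls were kept.

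The largest rises included genes of a transporter, a semaphorin, a G protein regulator and a chemokine receptor. Mfsd2a, a lysolipid transporter, was detected on 0 of 4 arrays at 0 h, read 9.11, 9.54, 9.50 and 9.57 at 4 h and was at least 24.2-fold higher (adjusted p = 2.91e-14). Sema7a, a semaphorin on activated T cells, went from no detection to 9.04, 9.53, 9.67 and 9.40, at least 23.8-fold. For both, the probes left background at 1 h, with means of 6.37 and 5.31. The G protein brake Rgs16 read 4.58, 4.35, 5.12 and 4.69 at 0 h and 8.78, 8.85, 9.79 and 10.17 at 4 h (4.71 ± 0.37). Replicates 3 and 4 were the higher at 4 h, and all 4 were far above rest. Ccr8, a chemokine receptor, was at least 12.9-fold higher, and the prion protein gene Prnp rose by 3.96 and the MAP kinase kinase gene Map2k3 by 3.62. The plot of levels by array and time shows that these rises differ in pace.

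**Figure D1:**
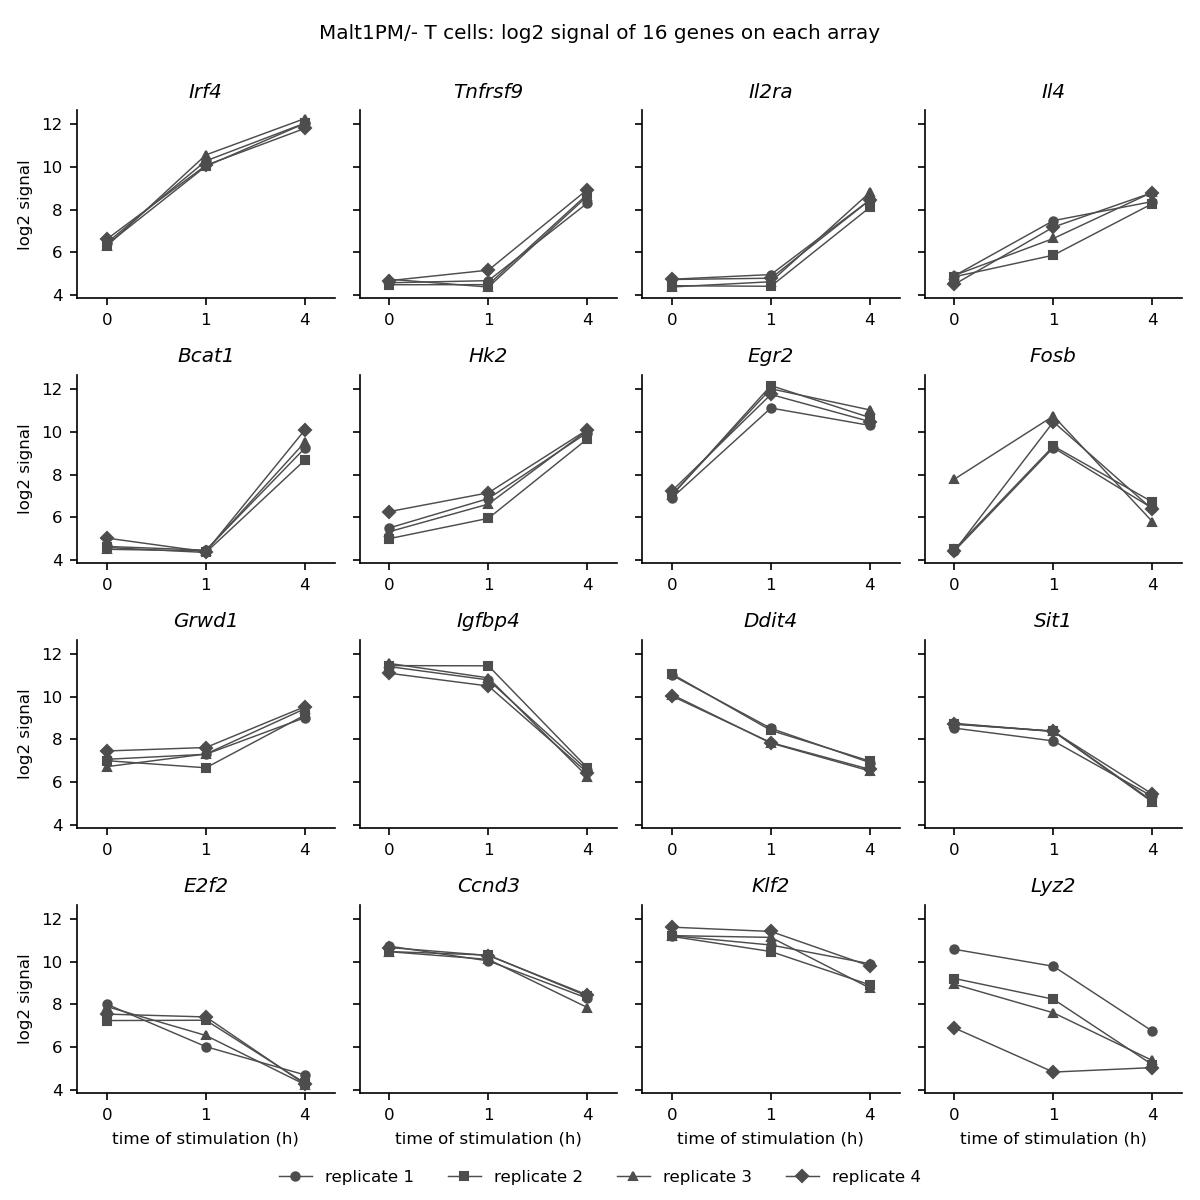
Log2 signal of 16 genes on each Malt1PM/- array (y axis) at 0, 1 and 4 h (x axis, not to scale), with one symbol per replicate number and lines joining arrays of the same number. Irf4, Egr2 and Fosb were up by 1 h, whereas Tnfrsf9, Il2ra and Bcat1 rose between 1 and 4 h, and Fosb was high at rest on replicate 3 alone (7.78).

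The largest falls included adhesion, adaptor and metabolic genes. Emp3, a membrane protein gene, went from 11.24, 10.93, 11.21 and 10.81 to 7.30, 6.97, 6.49 and 7.34, a change of -4.02 ± 0.20 (adjusted p = 1.56e-16). Pdlim4 (-3.86), Fam78a (-3.85), the AMP deaminase Ampd1 (-3.76), the adhesion receptor Adgre5 (CD97, -3.60) and the semaphorin Sema4a (-3.51) fell by as much or nearly so. The acetyl-CoA synthetase Acss2 read 9.70, 9.65, 9.56 and 9.72 at 0 h and 6.63, 6.84, 6.14 and 6.57 at 4 h (adjusted p = 2.83e-18). Rac2, a haematopoietic GTPase that drives actin and migration, read 10.47, 10.79, 10.69 and 10.58 and then 7.49, 7.47, 7.19 and 7.96. Every 4 h array lay more than 2 units below every resting one for Emp3, Acss2 and Rac2. Sit1, an adaptor that restrains receptor signalling, changed by -3.44, with 8.53, 8.71, 8.75 and 8.73 at 0 h and 5.33, 5.12, 5.07 and 5.44 at 4 h. Dtx1, a ubiquitin ligase of the Notch pathway linked to T cell anergy, was not detected on any 4 h array and was at least 7.69-fold lower.

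NF-kB genes rose in PM cells. All 4 measured subunits rose, Rel from 4.90, 4.45, 5.01 and 5.47 to 7.11, 7.37, 7.27 and 7.43, Nfkb2 by 2.05 and Relb by 2.01, and Rela by 0.93, a call lost with median scaling (adjusted p = 0.0535). Of 9 IkB and IKK genes 5 rose (3 with median scaling), Nfkbid (2.08), Nfkbib (1.53) and Nfkbie (1.03) most, while Ikbkg, the NEMO subunit, fell by 0.82 (adjusted p = 6.69e-05). Of 42 measured target genes 33 rose (78.6%, 26 with median scaling) and 1 fell (4 with array weights). Their median was 1.59, beside 1.80 in het and 1.20 in KO cells, and the subunit median was 2.03, beside 2.53 and 2.34. In response 0 of these targets differed from het and 1 from KO past the threshold, and of the subunits 0 differed from either. Tnfrsf9, the costimulatory receptor 4-1BB, was not detected at 0 or on 3 of 4 arrays at 1 h, read 8.30, 8.72, 8.63 and 8.94 at 4 h and was at least 14.1-fold above rest (adjusted p = 3.27e-18). Il2ra, the high-affinity chain of the interleukin-2 receptor, read 8.45, 8.10, 8.80 and 8.44 and was at least 12.3-fold higher. Neither had a 4 h array near background. Gadd45b rose by 3.65, Cd83 by 2.79 and Cd69 from 10.70 to 13.17 on average, having reached 13.33 at 1 h. Ltb, lymphotoxin beta, did not pass (-1.19, adjusted p = 0.109). It read 10.91, 10.94, 11.05 and 7.49 at 0 h and 8.87, 9.57, 9.04 and 8.13 at 4 h, low on replicate 4, and without that replicate its change was -1.80 (adjusted p = 0.00872).

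The promoters of Tnfrsf9 and Il2ra are shown because they are the 2 called NF-kB targets of largest change whose promoter, 250 bases before to 50 after the start, holds the kB consensus. A kB match was searched on both strands, and matches may overlap each other. The sequences are RefSeq's on GRCm38.p6, with the matched bases in capitals. For Tnfrsf9 (chr4:150927749-150928048, + strand, 1 of 2 starts listed) they begin 43 bases before the start, and for Il2ra (chr2:11642542-11642841, + strand) 201 bases before it, and in each case 2 overlapping matches make up the run.
Tnfrsf9: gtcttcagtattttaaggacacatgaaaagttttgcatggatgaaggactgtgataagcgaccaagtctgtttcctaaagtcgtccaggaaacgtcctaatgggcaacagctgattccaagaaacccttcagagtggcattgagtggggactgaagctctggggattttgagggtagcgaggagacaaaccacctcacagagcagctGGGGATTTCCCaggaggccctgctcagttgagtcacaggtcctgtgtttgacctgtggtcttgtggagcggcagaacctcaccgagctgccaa
Il2ra: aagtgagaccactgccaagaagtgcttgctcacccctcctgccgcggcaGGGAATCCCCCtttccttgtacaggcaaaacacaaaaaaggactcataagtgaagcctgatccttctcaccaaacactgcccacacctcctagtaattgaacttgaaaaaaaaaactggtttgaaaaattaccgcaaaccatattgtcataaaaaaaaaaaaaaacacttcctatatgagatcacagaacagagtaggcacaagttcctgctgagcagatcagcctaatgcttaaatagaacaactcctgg
The consensus was in 17 of the 34 listed targets with a promoter in the table (50%), in 12.3% of the 6274 tested genes with one and in 8.46% of all 32851 promoters. A gene was counted if any of its listed starts held the match, while the 32851 promoters were counted start by start. The last share is therefore in another unit. Of the genes that rose 12.3% held it and of those that fell 13.3%. The AP-1 letters TGANTCA were in 6 of the 34 (17.6%) against 6.22% of tested genes.

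Cytokine and chemokine genes were among the largest rises. Of 19 measured cytokines 11 rose and 3 fell (median 0.93), and of 9 chemokines 6 rose and 0 fell. Il4, the helper type 2 cytokine, read 4.90, 4.86, 4.92 and 4.50 at 0 h and 8.38, 8.28, 8.81 and 8.79 at 4 h, a change of 3.77 ± 0.33 (adjusted p = 4.04e-11). Ifng, the helper type 1 cytokine, read 4.58, 4.49, 5.40 and 4.81 and then 8.28, 8.29, 9.32 and 8.18, so for both genes the ranges at 0 and 4 h were separate. Il3 was at least 7.88-fold and Lif at least 7.91-fold higher, both from no detection at 0 h, and Csf2 (GM-CSF) at least 2.88-fold. Tnf had reached 9.48 at 1 h and stood at 9.65 at 4 h, from 6.56. The T cell attractant Il16 (-1.95), the growth factor Flt3l (at least 2.01-fold, detected on no 4 h array) and Osm (-1.23) fell. Among chemokines Xcl1 read 4.80, 4.65, 4.60 and 5.64 at 0 h and 10.53, 9.63, 10.88 and 11.46 at 4 h. Ccl4 read 5.97, 5.02, 7.26 and 6.34 and 11.33, 10.68, 12.17 and 12.08, spread by more than 2 units at rest and still without overlap. Ccl1 was at least 5.59-fold higher, and Cxcl10 and Cxcl9, which attract cells through CXCR3, rose by 3.40 and 2.63.

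Of 8 TNF superfamily ligands 7 rose, with Tnfsf11 (RANKL, 3.27), Tnf (3.10) and Tnfsf14 (LIGHT, at least 3.83-fold) leading. Of 15 receptors of the family 6 rose, Tnfrsf4 (OX40) by 2.72, Tnfrsf21 by 1.40 and Tnfrsf18 (GITR) by 1.17, and Tnfrsf25 fell by 1.06. Activation surface markers rose in 17 of 22 cases. The adhesion and signalling receptor Slamf1 read 6.50, 6.70, 6.57 and 6.16 at 0 h and 9.77, 10.20, 10.61 and 10.17 at 4 h, and PD-L1 (Cd274) rose by 2.38, Tfrc by 2.22, Icos by 1.68 and Ctla4 by 1.46. Cytokine receptors went both ways, 5 up (23.8%) and 10 down (47.6%) of 21, beside 24% and 27.1% of all genes tested. Il15ra rose by 2.03 while Il7r, the survival receptor of naive cells, went from 10.93, 10.77, 10.82 and 10.59 to 8.07, 8.67, 7.43 and 8.43, Tgfbr3 changed by -2.32 and Il18r1 by -2.05. Their inhibitors were split as well. Cish rose from 8.36, 8.30, 7.84 and 8.34 to 11.50, 10.58, 11.64 and 11.23 and Socs1 by 1.14, and Socs3 went down from 9.83, 10.21, 10.87 and 10.07 to 8.93, 8.31, 7.57 and 8.59. Both differences were larger than the spread in either group.

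Among lineage factors Gfi1, a repressor that favours proliferation, rose by 3.60, and Tbx21 (T-bet) by 2.69, with 4.37, 4.53, 4.69 and 5.04 at 0 h and 7.07, 7.12, 7.59 and 7.62 at 4 h. Bcl11b (-1.36) and Hhex (-1.26) fell. Of 20 measured 7 rose (2 with median scaling) and 3 fell, a list whose median of 0.17 was -0.02 with median scaling. Of 9 interferon regulatory factors 2 rose (22.2%), Irf4 and Irf8 (2.08), and 3 fell (33.3%), beside 24% and 27.1% of all genes tested. Irf4, needed for effector differentiation, went from 6.45, 6.36, 6.30 and 6.62 to 12.05, 12.04, 12.26 and 11.80, with the 4 h arrays within 0.5 of each other.

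More of the immediate early factors were lower at 4 h than at 1 h than were higher. Of 12 EGR, NR4A and NAB genes 4 stood above 0 h, and 7 of the 12 were lower at 4 h than at 1 h, with 0 higher, beside 24.2% and 23.6% of all genes in that comparison. Egr2 read 6.91, 7.03, 7.06 and 7.23 at 0 h, 11.11, 12.16, 12.01 and 11.75 at 1 h and 10.30, 10.67, 11.02 and 10.48 at 4 h. Its 4 h level was still 3.56 above rest, and -1.14 relative to 1 h (adjusted p = 9.49e-05). Nr4a2 and Nr4a3, orphan nuclear receptors, were at least 5.53-fold and 4.75-fold above rest at 4 h. Of 22 AP-1 and CREB family factors 8 rose (36.4%) and 3 fell (13.6%, 1 gene without replicate 3 in both groups) against 0 h. In that comparison 24% of all genes tested rose and 27.1% fell. Of the 22, 9 were lower and 2 higher than at 1 h. Crem, a cAMP-responsive repressor and activator, rose by 4.15, and Atf3 read 8.01, 7.64, 8.54 and 8.98 at 4 h, at least 11-fold above 0 h. Neither differed from 1 h past the threshold (-0.64 and 0.14, adjusted p = 0.11 and 0.882). Fosb read 9.26, 9.33, 10.74 and 10.47 at 1 h and 6.42, 6.72, 5.80 and 6.37 at 4 h (-3.62, adjusted p = 3.01e-05). Against rest its 1.05 did not pass with replicate 3 in (adjusted p = 0.196), and without replicate 3 in both groups it was 2.06 (adjusted p = 0.0116). Fos moved from 0.22 (adjusted p = 0.817) to 1.07 without replicate 3 (adjusted p = 0.25).

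Genes of ribosome biogenesis rose almost as a whole, 45 of 48 measured (93.8%), with none down and a median of 1.64, and 40 rose with median scaling. They had hardly moved at 1 h, where the list's median was 0.18, and 43 were higher at 4 h than at 1 h. Rrp1b read 6.99, 6.80, 6.79 and 6.27 at 0 h and 9.64, 9.61, 9.46 and 9.32 at 4 h (2.79 ± 0.21, adjusted p = 1.96e-12). Noc3l (2.31), Rrp9 (2.25) and Noc4l (2.22), all nucleolar processing factors, followed. Grwd1, a chaperone of ribosomal protein L3, read 7.07, 7.0, 6.73 and 7.46 and then 9.02, 9.14, 9.44 and 9.53, and Nop2, an rRNA methyltransferase, 6.57, 7.01, 6.44 and 6.84 and then 8.45, 8.94, 9.04 and 9.06. All 4 arrays at 4 h were at least 1 unit above every array at rest in each. Myc, which can drive this programme, read 5.78, 5.38, 5.61 and 4.35 at 0 h and 8.82, 8.64, 8.71 and 7.16 at 4 h. It was lowest on replicate 4 in both groups, and its change was 3.05 ± 0.56 (adjusted p = 2.65e-05). A part of Myc in the rises of this list was not tested.

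MYC binds the E-box CACGTG (the same letters on both strands), and the 2 listed genes of largest change with this E-box in the promoter are shown with it in capitals. In Grwd1 (chr7:45830740-45831039, - strand) it begins at base 35 of the transcript, and in Nop2 (chr6:125131633-125131932, + strand) 60 bases before the start.
Grwd1: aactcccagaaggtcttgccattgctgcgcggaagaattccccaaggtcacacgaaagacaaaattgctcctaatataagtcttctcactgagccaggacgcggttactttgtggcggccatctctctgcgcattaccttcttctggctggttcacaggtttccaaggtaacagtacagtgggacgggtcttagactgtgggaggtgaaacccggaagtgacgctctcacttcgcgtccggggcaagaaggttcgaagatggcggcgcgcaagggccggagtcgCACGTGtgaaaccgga
Nop2: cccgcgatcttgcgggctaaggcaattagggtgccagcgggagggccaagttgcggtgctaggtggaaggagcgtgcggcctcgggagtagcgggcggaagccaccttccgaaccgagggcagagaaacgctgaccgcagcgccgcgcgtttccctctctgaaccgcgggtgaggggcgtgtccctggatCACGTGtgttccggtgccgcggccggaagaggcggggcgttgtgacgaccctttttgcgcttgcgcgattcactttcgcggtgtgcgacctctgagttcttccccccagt
It was in 10 of 42 list members with a promoter (23.8%), in 12.5% of tested genes, in 16% of the genes that rose and in 12% of those that fell, and in 7.15% of all promoters. The last share counts each start and the others each gene. The CRE letters TGACGTCA were in 2 of the 42 (4.76%) against 3.65% of tested genes.

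Other translation genes were counted by compartment. Of 53 cytosolic ribosomal protein genes 2 rose, 6 fell and 45 did not pass, with a median of -0.14, and with median scaling none passed, while 11 fell with array weights. Of 69 mitochondrial ribosomal protein genes 32 rose (10 with median scaling) and 2 fell (7 with array weights), led by Mrps6 (2.43), Mrpl17 (1.42) and Mrpl12 (1.39). Of 33 initiation factor genes 19 rose (11 with median scaling), Eif5a by 1.91 and Eif1a by 1.76 most, and Eif4e3 fell by 1.24. Of 19 cytosolic or shared aminoacyl-tRNA synthetases 15 rose and 1 fell, with a median of 1.08, among them Rars (1.63), Iars (1.51) and Wars (1.38). The 12 mitochondrial ones had a median of -0.01, with 1 up and 2 down. Eef1e1, a scaffold of the cytosolic complex, rose by 2.01.

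Amino acid and one-carbon genes mostly rose. Of 20 amino acid transport and polyamine genes 12 rose and 1 fell. Bcat1, the cytosolic branched-chain transaminase, was not detected at 0 or 1 h, read 9.23, 8.67, 9.51 and 10.09 at 4 h, highest on replicate 4, and was at least 23.3-fold above rest. Its mitochondrial counterpart Bcat2 fell by 0.95 (adjusted p = 0.0025). Odc1, which starts polyamine synthesis, went from 8.06, 8.12, 8.45 and 7.78 to 11.66, 11.77, 11.76 and 11.54 and Srm, spermidine synthase, rose by 2.71. Slc7a5, the large neutral amino acid transporter, read 9.22, 9.20, 9.30 and 8.87 at 0 h and 11.73, 11.71, 11.73 and 11.67 at 4 h, so the 4 h arrays lay within 0.1 of each other. Of 14 serine and one-carbon genes 8 rose and 1 fell, with Shmt1 (2.57), Psat1 (2.54) and Shmt2 (2.03). Slc19a1, the reduced folate carrier, rose by 2.87.

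Glucose genes did not move as a block, 4 up (21.1%, 2 genes with median scaling) and 6 down (31.6%) of 19, beside 24% and 27.1% of all genes tested. Hk2, a hexokinase, read 5.50, 5.0, 5.32 and 6.26 at 0 h and 9.96, 9.67, 10.07 and 10.10 at 4 h (4.43 ± 0.28), and the glycolytic mutase Pgam1 rose by 1.34. Pdk1, a kinase that inhibits pyruvate dehydrogenase, went the other way, from 9.31, 9.78, 9.54 and 8.36 to 6.36, 6.35, 6.51 and 6.83, as did the glucose transporter Slc2a3 (-1.01) and Pfkm (-1.40). Of 23 cholesterol genes 6 rose (26.1%), Cyp51 (2.24) and Sqle (2.0) most, and 6 fell (26.1%), among them Mvd (-1.24) and the exporter Abcg1 (-1.24). Both shares were near those of all genes. Respiratory chain genes split into 14 up and 18 down of 65 (4 and 1 with median scaling), beside 24% and 27.1% of all genes. In nucleotide synthesis Cad (2.13) and Ctps (2.04), which make pyrimidines, rose. Their DNA replication list had 10 up (25.6%) and 7 down (17.9%) of 39, or 4 and 3 genes with median scaling.

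Genes for protein turnover and transport rose with the biosynthetic ones. Of 36 proteasome genes 23 rose and 4 fell (10 and 2 with median scaling). The nuclear activator subunit Psme3 read 8.75, 8.42, 8.52 and 8.97 at 0 h and 10.16, 9.81, 10.46 and 10.34 at 4 h, and Psma7 rose by 1.26. All 3 subunits of the immunoproteasome, Psmb8 (-1.31), Psmb10 (-1.21) and Psmb9 (-0.74), fell, the last not with median scaling (adjusted p = 0.224) or without replicate 3 in both groups (adjusted p = 0.0659). Of 43 chaperone genes 25 rose (14 with median scaling) and 2 fell, with Hspd1 (1.70), Cdc37 (1.63) and Hsph1 (1.59). Of 17 nuclear transport genes 13 rose (7 with median scaling) and none fell, with the importins Ipo4 (2.47) and Ipo5 (2.11) and the exchange factor Rcc1 (2.15) leading.

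**Figure D2:**
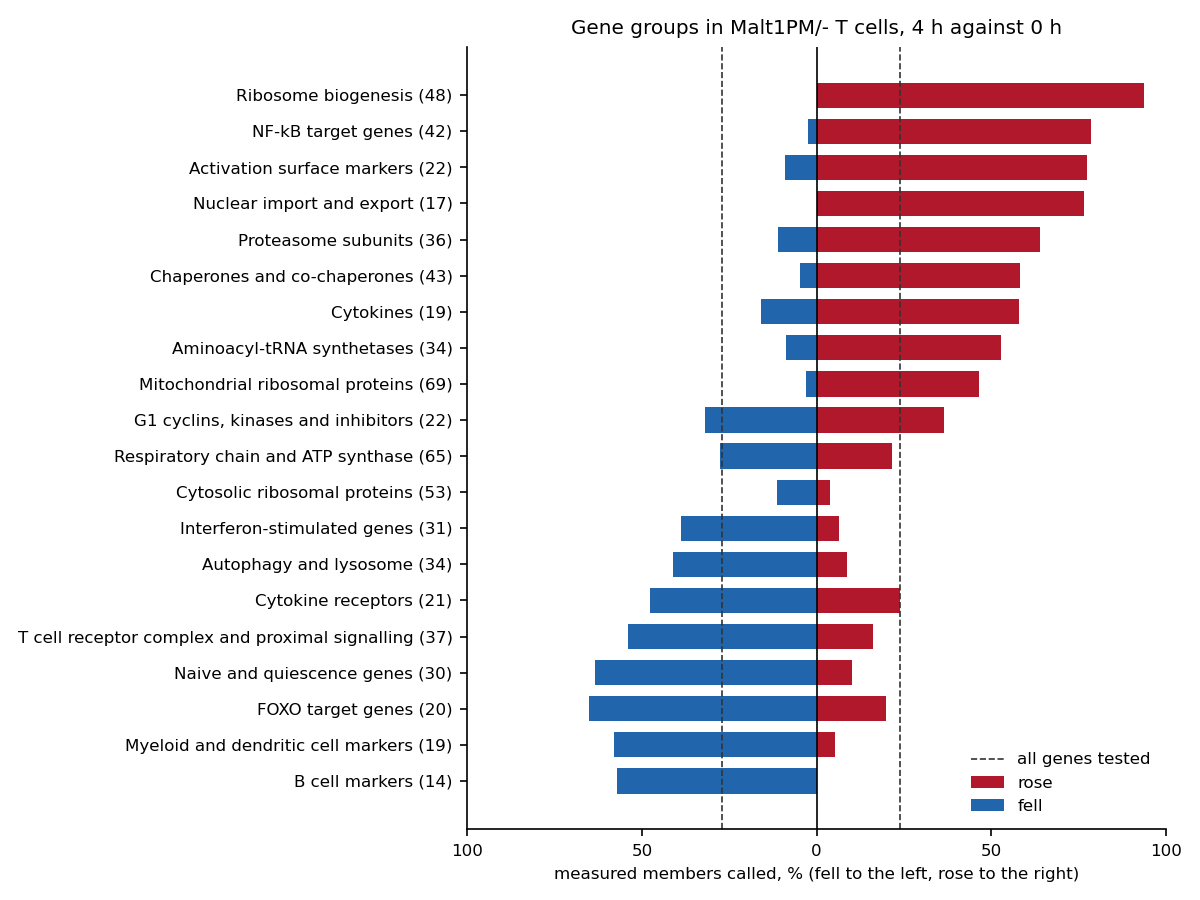
Percent of the measured members of 20 gene groups that rose (red, to the right) or fell (blue, to the left) in PM cells between 0 and 4 h at a limma adjusted p under 0.05, with the number measured in parentheses. Dashed lines mark the shares over all 7585 genes tested, 24% and 27.1%. Ribosome biogenesis reached 93.8% up, and the cytosolic ribosomal proteins stayed under both lines.

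Cell cycle genes went both ways. Of 22 G1 genes 8 rose (36.4%) and 7 fell (31.8%), beside 24% and 27.1% of all genes tested. Cyclin D2 (Ccnd2) went from 9.63, 8.93, 8.98 and 8.04 to 10.49, 9.99, 10.61 and 9.88, while cyclin D3 (Ccnd3) went from 10.72, 10.47, 10.46 and 10.66 to 8.29, 8.39, 7.85 and 8.44. Cdkn1a, the inhibitor p21, was at least 11-fold higher and read 8.28, 8.34, 8.28 and 8.28, and the inhibitor Cdkn2d (p19) changed by -2.10. The S phase factor E2f2 read 8.0, 7.24, 7.89 and 7.54 at 0 h, was detected on no array at 4 h and was at least 6.92-fold lower. Of 10 measured mitosis genes 0 rose and 5 fell (3 with median scaling), Kif23 most (-1.71). Kif15, a spindle motor outside that list, was at least 8.33-fold higher. Among 14 BCL2 family genes 4 rose (28.6%) and 3 fell (21.4%), near the shares of all genes, with Bcl2a1d (at least 8.45-fold) and Bid (1.53) up and Bad (-1.38) down. Gene pairs of opposite sign also stood among stress genes, Gadd45b (3.65) and Plk3 (2.79) up and Ddit4 and Sesn1 (-2.36) down.

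Genes of the naive, quiescent state fell. Of 30 measured 19 fell (63.3%) and 3 rose (1 with median scaling), with a median of -1.40. Ddit4, an mTOR inhibitor, read 11.005, 11.07, 10.10 and 10.03 at 0 h and 6.92, 6.99, 6.52 and 6.60 at 4 h, and much of its change of -3.79 was in place at 1 h, with a mean of 8.15. Tsc22d3 (GILZ) went from 10.81, 11.43, 10.74 and 11.03 to 8.43, 8.60, 7.46 and 7.98, and Klf2, which keeps cells recirculating, from 11.22, 11.18, 11.22 and 11.61 to 9.90, 8.91, 8.76 and 9.79. Dgka, the kinase that removes diacylglycerol, went from 12.81, 12.63, 12.99 and 13.27 to 10.80, 10.53, 9.87 and 10.85. In these 4 genes no 4 h array came within 1 unit of a resting one. Lef1 did not pass (-1.41, adjusted p = 0.076), with 7.65, 8.30, 7.09 and 5.43 at 0 h and 6.06, 6.64, 5.58 and 4.54 at 4 h, and was lowest on replicate 4 in both groups. Without that replicate its change was -1.59 (adjusted p = 0.0645). Of 20 FOXO targets 13 fell and 4 rose (2 with median scaling). The rises were Gabarapl1 (1.18), Bcl2l11 (1.06), Sesn3 and Bcl6 (the last pair lost with median scaling, adjusted p = 0.123 and 0.325; Bcl6 also without replicate 3 or 4 in both groups, adjusted p = 0.0726 and 0.0597), and Foxo1 itself fell by 1.38. Among inositol phospholipid genes 10 of 21 fell and 5 rose (3 with median scaling), the PI3K subunits Pik3r1 (-1.97), Pik3cd (-1.79) and Pik3cg (-1.31) and the inhibitor Pik3ip1 (-3.06) among the falls. Of 34 autophagy and lysosome genes 14 fell and 3 rose (1 with median scaling), with Psap (-2.07), Ctsh (-1.89) and Atg10 (-1.99).

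Of 21 homing receptors and integrins 9 fell (42.9%) and 6 rose (28.6%), beside 27.1% and 24% of all genes tested. Itgb7, the gut-homing integrin chain, went from 11.56, 11.34, 11.75 and 12.36 to 7.76, 7.34, 6.95 and 8.23, Selplg, the selectin ligand, changed by -1.85 and Cxcr4 by -1.56. Cd44 (1.73), Itgav (1.72) and Icam1 (1.72) rose. Ccr7, which admits naive cells to lymph nodes, did not pass (adjusted p = 0.0785).

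More genes of the receptor pathway fell than rose. Of 37 genes of the T cell receptor complex and its proximal signalling 20 fell (54.1%, 13 with median scaling) and 6 rose. Cd3g read 12.76, 12.60, 12.82 and 12.73 at 0 h and 11.60, 11.46, 11.58 and 11.36 at 4 h, Cd3d changed by -0.86, and the kinases Tec (-1.93) and Csk (-1.18) and the actin regulator Was (-1.47) fell. Sh2d2a (1.54), the phosphatase Ptpn22 (1.53), the adaptor Lcp2 (1.36) and the kinase Zap70 (0.86) rose. Of 15 calcium and NFAT genes 7 fell (46.7%) and 3 rose (20%, 1 gene with median scaling), beside 27.1% and 24% of all genes tested. Orai1, the pore of the store-operated channel, went from 8.71, 8.44, 8.51 and 8.97 to 10.94, 10.83, 11.05 and 11.51, while the store release channels Itpr2 (-2.40) and Itpr3 (-1.93) went down. Among the brakes of MAP kinase signalling Spred1 (1.94), Dusp16 (1.89) and Dusp4 (at least 2.5-fold, detected on no 0 h array) rose and Dusp7 (-1.52) fell. Of 12 such genes 4 rose (33.3%) and 2 fell (16.7%), beside the same shares of all genes. Of 8 RGS genes 2 rose (25%), Rgs16 and Rgs1 (3.03), and 3 fell (37.5%, 1 gene without replicate 3 in both groups). These stand beside 24% and 27.1% of all genes tested. Among the falls was Rgs14, which was detected on no 4 h array and was at least 2.08-fold lower. Of 8 GIMAP genes Gimap5 alone rose (12.5%, a change of 1.23) and 3 fell (37.5%, 1 gene with median scaling), Gimap7 most (-1.51).

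Interferon-responsive genes were counted by family, beside the 24% of all genes tested that rose and the 27.1% that fell. Of 31 measured interferon-stimulated genes 12 fell (38.7%) and 2 rose (6.45%), and 6 fell with replicate 3 left out of both groups. Ifit2 went from 8.05, 8.01, 8.19 and 7.67 to 6.70, 6.30, 5.96 and 6.49, and Oas2 (-1.57) and Ifitm3 (-1.56) fell with it. Of 10 interferon-inducible GTPases 7 rose (4 with median scaling and 4 without replicate 4 in both groups) and none fell. Gbp5 was at least 4.72-fold higher from no detection, with 7.35, 7.06, 6.94 and 6.95 at 4 h, and Gbp2 read 11.50, 11.08, 11.99 and 11.36 at 0 h and 13.78, 13.20, 13.37 and 13.61 at 4 h. Ifng, which can induce this family, rose on the same arrays, as given above, and a link between these rises was not tested. The MHC class II group had 7 of 12 lower (58.3%), with the peptide-loading genes H2-Oa (-2.02) and H2-DMa (-1.82) and the transactivator Ciita (-1.43). Of 18 class I genes 5 fell (27.8%, near the share of all genes), 1 with median scaling and 2 without replicate 3 in both groups. H2-M3 fell most (-1.15, limma adjusted p with median scaling = 0.0515).

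Of 11 circadian genes 6 rose, the repressor Bhlhe40 from 5.31, 5.37, 6.05 and 6.19 to 9.39, 9.40, 10.03 and 9.01, Per2 by 2.42 and Per1 by 2.0, and their output gene Dbp fell by 1.34. Arntl and Clock, the activators of the loop, did not pass (adjusted p = 0.438 and 0.118). Of 136 numbered ZFP zinc finger genes 17 rose (12.5%) and 29 fell (21.3%), or 10 and 18 with median scaling, with Zfp52 (3.13) and Zfp362 (-1.58) at the ends. Both shares were under the 24% and 27.1% of all genes tested.

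In 4 marker lists more genes fell than rose between 0 and 4 h, where 24% of all genes tested rose and 27.1% fell. Of 14 B cell markers 8 fell and none rose (median -1.62), Cd79a from 7.51, 6.65, 7.85 and 8.28 to 5.58, 5.01, 5.27 and 5.71. Their mean level was 6.35 to 7.72 over the 0 h arrays, highest on replicate 4, and 5.23 to 6.11 at 4 h, and all 14 were detected on at least 1 resting array, 5 on no 4 h array. Of 19 myeloid and dendritic cell markers 11 fell (7 when only genes detected on all 4 arrays at 0 or 4 h were tested) and 1 rose. Among those that fell was the lysozyme gene Lyz2, from 10.58, 9.21, 8.94 and 6.89 to 6.75, 5.18, 5.37 and 5.04. Their mean ranged from 6.07 to 6.62 at 0 h and from 5.05 to 5.74 at 4 h. Of 6 NK markers 5 fell (3 under the same filter) and of 9 CD8 markers 4 fell and 1 rose, with changes of -2.59 for Prf1 (perforin), which is in both lists, and -1.93 for Cd8b1. The CD8 mean was 7.47 to 8.08 at 0 h and 6.19 to 7.08 at 4 h, and in each of these 4 lists every 4 h array lay below every 0 h array. The falls of MHC class II, lysosome and homing genes move with these markers, and their part in those results was not tested. Other marker lists did not fall as a whole. Of 6 CD4 markers 2 rose and 2 fell, Cd4 itself among the falls. Its call was lost with median scaling (-1.10, limma adjusted p = 0.144) and without replicate 3 in both groups (-0.82, adjusted p = 0.151). Without replicate 4 in both groups it was kept (-1.11, adjusted p = 0.0266). Of 3 plasma cell markers 2 rose, Irf4 among them, and 1 fell. Of 4 erythroid and platelet markers 1 rose, Tfrc, and 0 fell, and of 2 gamma-delta and innate-like T cell markers 0 passed. Irf4 and Tfrc were described above with the lineage factors and the activation surface markers. Of 10 housekeeping genes 6 did not pass, Gapdh among them (0.10, adjusted p = 0.553).

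**Figure D3:**
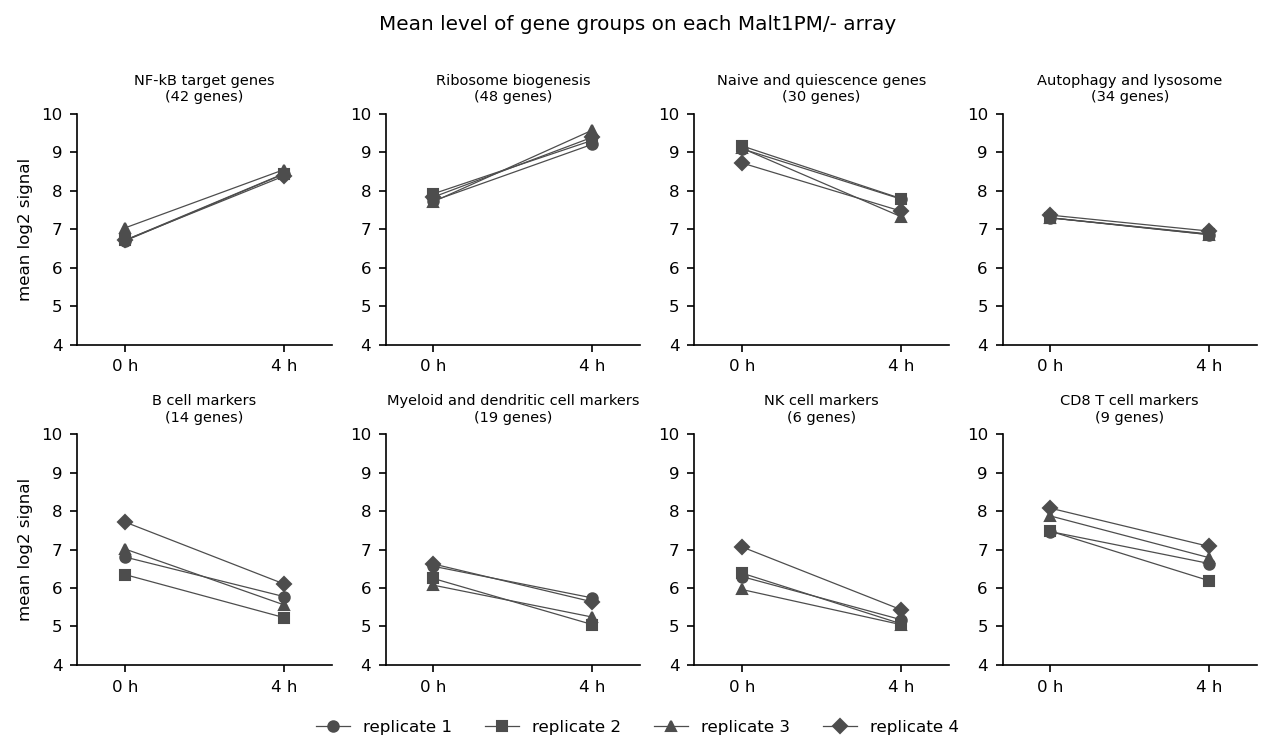
Mean log2 signal over the measured members of 8 gene groups (y axis) on each PM array at 0 and 4 h, one symbol per replicate number, lines joining equal numbers. The B cell marker mean of replicate 4 at 0 h (7.72) is the highest of the 8 arrays, and NF-kB targets and ribosome biogenesis rise on every line.

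At the detection limit, 83 genes were detected on 0 of 4 arrays at rest and on 4 of 4 at 4 h, 82 of them called, and 152 went from 4 of 4 to 0 of 4, 147 of them called. Both sets were picked by detection on these same arrays, which nearly fixes the call, so the calls add no support. The gained genes stood at least 2.05-fold (median) and up to 24.2-fold above rest, and the lost ones at least 1.59-fold and up to 7.69-fold below. By this bound Mfsd2a, Sema7a and Bcat1 were followed by Tnfrsf9, Ccr8, Il2ra, Cdkn1a and Atf3. The lost ones were led by Dtx1, E2f2, the secretory GTPase Rab3d (at least 6.74-fold) and Tmem108 (at least 5.32-fold). Other genes given with a change were detected on only some arrays. At 0 h these were Rgs16, Cxcl10, Cxcl9, Tbx21, Fosb, Shmt1, Gabarapl1, Itgav and Zfp52 on 1 of 4, Tnfsf11, Socs1, Xcl1 and Pdgfb on 2, and Il4, Tnfrsf21, Ctla4, Il15ra, Myc, Cyp51, Ramp3, Grk6, S1pr4, Adcy7 and Als2cl on 3. At 4 h they were S1pr4, Adcy7 and Als2cl on 1, Tec and Cdkn2d on 2, and Ampd1, Bad, Lef1, Grk6, Trim36 and Pias3 on 3.

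Against 1 h, 1792 genes were higher at 4 h and 1833 lower (47.8% called in all), a share of 49.4% higher among the calls that became 63.9% with median scaling, where 1192 were higher and 673 lower. These counts leave out the replicate numbers, which pair the samples of these groups, and with them as a block 2084 were higher and 2152 lower. Among the largest on the higher side, Bcat1, Kif15 and Lad1 were detected on no 1 h array and were at least 23-fold, 8.21-fold and 7.89-fold higher at 4 h. Tnfrsf9 (3.97) and Il2ra (3.76) were detected on 1 of 4 arrays at 1 h and Xcl1 (4.41) on 3. The others were Sema7a (4.10), Slc19a1 (3.33), the secreted amino acid oxidase Il4i1 (3.31) and Hk2 (3.30). On the lower side 2 genes had been transient. Fosb fell by 3.62 and Trim36, a ubiquitin ligase gene, by 3.59, from 9.27, 8.54, 9.33 and 9.19 at 1 h to 5.98, 5.64, 5.38 and 4.97 at 4 h, where it overlapped its 0 h arrays at 5.51, 5.51, 5.54 and 6.03. The remaining ones, Igfbp4 (-4.42), Itgb7 (-3.63), Nsg2 (-3.35), Emp3 (-3.35), Ampd1 (-3.16), Adgre5 (-3.07), Sit1 (-3.03) and Pdlim4 (-2.99), are falls from rest that came mainly after 1 h. Of 30 quiescence genes 22 were lower at 4 h than at 1 h and 2 higher.

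The response was compared with that of het cells as a difference of 2 differences. Of 7585 genes 10 passed (0.132%), 7 higher (0.0923%) and 3 lower (0.0396%) in PM, and 425 reached an unadjusted limma p under 0.05 (5.6%). With only these 4 groups in the fit 0 passed, and 20 did with an offset of 50, 51 with array weights, and 4 and 1 without replicate 3 or 4 throughout. The main fit does not use the replicate numbers, and with them as a block 46 passed, 30 higher and 16 lower. The median SE of such a difference was 0.27, beside a median absolute difference of 0.17. Where a probe was detected on no array of a group, a change against that group has no measured size, and levels are given in its place. Il4 changed by 3.77 in PM. In het it was detected on no 0 h array and had a mean of 5.81 at 4 h, at least 2.01-fold above rest, beside 8.57 in PM (adjusted p of the difference = 0.0266). Il12rb2, an interleukin-12 receptor chain, was detected on no PM array at 0 h and no het array at either time. It read 6.61, 5.96, 6.16 and 5.31 in PM at 4 h, at least 2.26-fold above rest (adjusted p of the difference = 0.0266). Gbp11 and Abcb4 were undetected in the same groups and at least 2.38-fold and 1.42-fold above rest in PM. Pdgfb, a growth factor chain, went the other way, with 4.47, 4.47, 5.04 and 5.65 at 0 h and 5.39, 5.61, 6.33 and 7.10 at 4 h. It changed by 1.20 in PM and 4.36 in het (-3.16, adjusted p = 0.00182). Id1, an inhibitor of helix-loop-helix factors, and Dnph1 were detected on no 0 h array of either genotype and on 1 of 4 PM arrays at 4 h, while het had means of 6.10 (4 of 4 detected) and 5.21 (3 of 4) at 4 h. Klhl6 fell in PM and Spsb1 and Sft2d2 did not pass there, with changes of -1.52, -0.41 and -0.42 against -2.54, -1.91 and -1.78 in het. These calls depended on the setting, and Il4 passed in 12 of 28 alternatives, Pdgfb in 27.

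**Figure D4:**
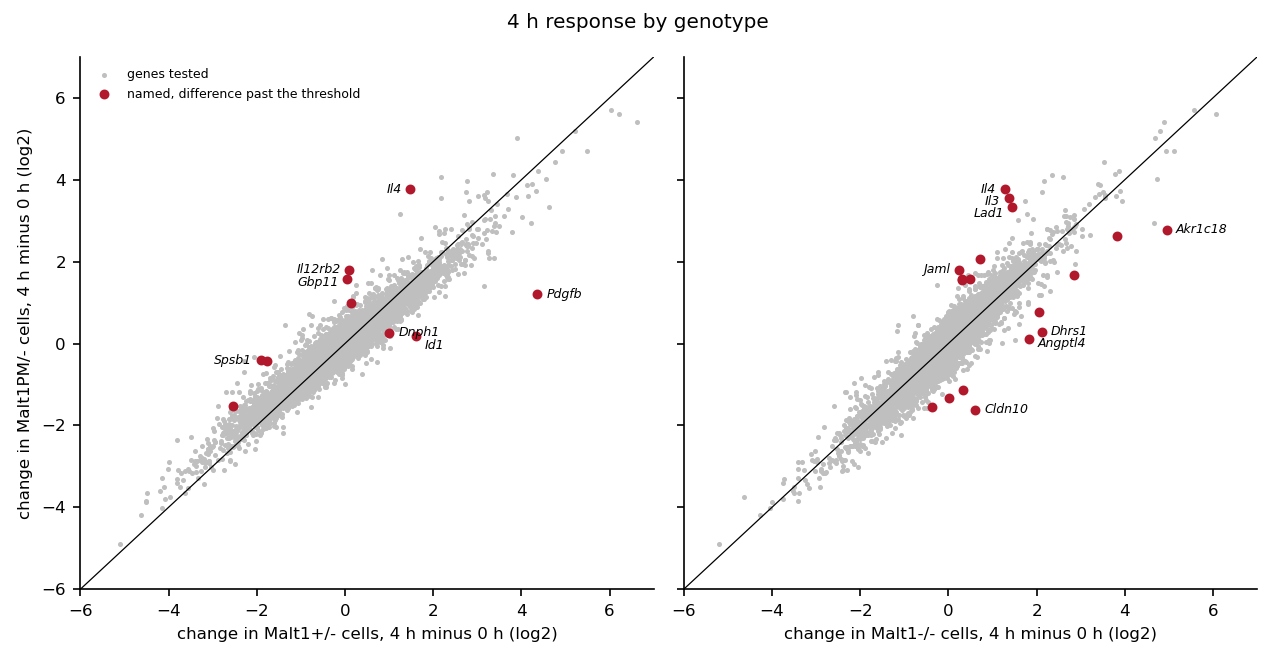
Change between 0 and 4 h (log2) of each tested gene in PM cells (y axis) against that in het (left) and KO cells (right, x axes). Named genes of the difference tests are in red, up to 4 of largest difference on each side with their symbols, and the line marks equal change. Points of genes not detected at 0 h, such as Il12rb2, Gbp11, Il3 and Akr1c18, rest on background values there. Pdgfb lies far below it against het, with 1.20 in PM and 4.36 in het.

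Against KO cells 28 genes passed (0.369%), 8 higher (0.105%) and 20 lower (0.264%) in PM, with 403 at an unadjusted p under 0.05 (5.31%). There were 3 with median scaling, 12 with only these groups in the fit, 47 with array weights, 5 and 7 without replicate 3 or 4 throughout, and 9 to 27 without 1 array. With a replicate block 65 passed, 18 higher and 47 lower. This comparison uses the same PM arrays as the last. Higher were 3 cytokine genes of chromosome 11, Il4, Il3 and Csf2 (adjusted p = 0.00894, 0.0025 and 0.0268), none of them detected on a KO array at 0 h and the last pair on no PM array at 0 h. At 4 h Il4 had a mean of 8.57 in PM and 5.61 in KO, Il3 of 7.81 and 5.67, and Csf2 of 6.36 and 4.95, with Il3 detected on 3 and Csf2 on 2 of 4 KO arrays. The adhesion molecule Jaml (1.57) and the oxysterol receptor Gpr183 (1.23) differed as well. Lad1, Gbp11 and Idi2 completed the 8. They were detected on no 0 h array of either genotype and had 4 h means of 7.83, 6.09 and 5.89 in PM and 5.68 (4 of 4 detected), 4.52 (1 of 4) and 4.79 (2 of 4) in KO. Of the lower ones Cldn10 (-2.23, adjusted p = 5.06e-05), Rcan3 (-1.45), Ephx1 (-1.34) and Fxyd5 (-1.18) fell in PM and had changes of 0.61, 0.32, 0.01 and -0.37 in KO. Tiam1 rose in PM (not with median scaling, adjusted p = 0.078) and changed by 2.06 in KO, a difference of -1.29. Akr1c18, Bdh2 and Eml1 were detected on no 0 h array of either genotype and rose in PM, to 4 h means of 6.96, 7.0 and 5.96 beside 9.17, 8.24 and 7.09 in KO. Dhrs1 and Angptl4 did not pass in PM (0.29 and 0.11) and changed by 2.12 and 1.83 in KO. Il3 passed in 28 of 28 alternatives and Gpr183 in 8.

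Among the 10 called genes whose change differed most between replicate numbers, Grk6, S1pr4, Adcy7, Als2cl and Acaa2 were low on replicate 4 at rest, and their groups overlapped. Grk6, a receptor kinase, read 8.90, 8.60, 8.84 and 4.52 at 0 h and 6.43, 6.03, 5.63 and 4.22 at 4 h, and S1pr4, a lipid receptor of lymphocytes, 7.26, 6.81, 7.16 and 4.27 and 4.58, 4.53, 4.93 and 4.27. Adcy7 (7.49, 7.75, 6.90 and 4.22), Als2cl (7.91, 7.23, 6.85 and 4.51) and Acaa2 (8.25, 7.99, 8.23 and 5.05) had the same shape at 0 h. Without replicate 4 in both groups these 5 changed by -2.75, -2.39, -2.52, -2.47 and -2.18, against -2.14, -1.80, -1.85, -1.87 and -1.51 with it, and median scaling ended the calls of all but S1pr4. Ramp3, a receptor activity-modifying protein, read 6.0, 5.80, 5.97 and 4.34 at 0 h and 9.94, 10.95, 9.27 and 6.45 at 4 h, low on replicate 4 at both times. The calcium sensor Stim1 read 8.35, 8.35, 8.36 and 5.99 and then 7.02, 6.84, 6.37 and 6.71, low on replicate 4 at rest, and the histone genes H2ac7, H2ac12 and H2ac24, whose near-identical copies a probe may not tell apart, changed by -1.18, -1.19 and -1.54. Without replicate 3 in both groups none of these 4 passed (adjusted p = 0.103, 0.134, 0.116 and 0.0725), nor did Grk6, Adcy7, Als2cl or Acaa2 (0.153, 0.141, 0.147 and 0.153), and Stim1 was lost with median scaling too (0.0843). Of the 362 genes low on replicate 4 at rest 278 were not called in the comparison, where 51.1% of all genes tested were called. These genes were picked by a wide spread at 0 h, which itself makes a call harder.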

How the data were processed

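RNA of 36 samples was hybridised to MouseRef-8 Illumina bead arrays, which measure each gene with 1 or more probes. The deposited table holds, per the file headers, a non-normalized signal intensity and a detection p-value for each probe and array, and GenomeStudio 2011.1 is named in the submitters' processing notes. The authors' deposited processed table, whose values run below 0 and share a 75th percentile of 42.6 on every array, was used as an alternative. What was subtracted to make it is not given in the sources used here.

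Arrays were grouped by title. Signals were background-corrected, quantile normalized and put on a log2 scale with limma 3.58.1 (neqc, offset 16) in R 4.3.3, with statmod 1.5.0. Of 25697 probes, 10961 were detected (p under 0.01) on at least 4 arrays, 10314 of them with a gene symbol from GEO's platform annotation, and the brightest probe stood for each of 7585 genes, 1985 of which had several. Of the array's symbols 9008 were not tested. In 7 of the 1985 genes, 1 probe was called up and another down. All 36 arrays entered one limma fit with a mean per group (27 residual degrees of freedom), p-values were adjusted by Benjamini-Hochberg over all genes tested, and a gene was called at 0.05. The number of arrays limits the precision. The fit was tested on simulated data with known changes at PM 4 h, where far fewer genes changed than were called here. It found 22 of 67 changes of 1.5-fold, 54 of 67 of 2-fold and 66 of 66 of 4-fold, with 9 false calls. A small change that did not pass is thus not shown to be absent. "Rose" and "fell" are used of called genes, all p-values are two-sided, and an SE is the fit's. Where a probe was detected on 0 arrays of one group, an at-least fold sets the other group's mean against that group's mean of, per array, the higher of the lowest detected signal and the probe's own.

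The members, gene lists and tests were chosen with earlier results of these data known. Named were Malt1, genes of the 25 largest rises and 25 largest falls without overlap, the 10 largest on each side of the other comparisons, the list members of largest change, the 10 called genes (of at least 1 log2 unit) of most varied change, and others singled out after their values were seen. Samples of the same number deviated together between PM 1 h and 4 h (r = 0.368, 0.579, 0.195 and 0.681), so these numbers pair the samples of those 2 groups. The titles repeat the same numbers across genotypes and times. Equal numbers also deviated together between PM and het at 4 h (r = 0.502, 0.743, 0.275 and 0.623). So did those between PM and KO at 0 h (0.218, 0.645, 0.241 and 0.509). Some other pairs of groups held a value under 0.1, such as the third between PM 0 h and 4 h (0.085) and the first between KO 0 h and 4 h (-0.0718). Between het 0 h and 4 h none was that low (0.292, 0.623, 0.267 and 0.537). The main fit left the numbers out, and the replicate block used them.

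Alternatives changed the background correction, offset, normalization, values, probe filter, probe per gene, arrays in the fit, array weights, replicate block and replicates included. Promoter sequences are RefSeq's for GRCm38.p6, from 250 bases before to 50 after the start.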

Additional observations from a re-analysis of the deposited data

Results flagged for a closer look

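Of 510 sets of 4 arrays (each named gene at 0 h and at 4 h), 40 (7.84%) held an array far from the other 3, where chance flags about 1 in 20 groups. The value of that array is given with the range of the others, in log2 signal.

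At 0 h, 12 of the 22 were on replicate 4. It was lowest for Grk6 (4.52 against 8.60 to 8.90), Ltb (7.49 against 10.91 to 11.05), Acaa2 (5.05 against 7.99 to 8.25), S1pr4 (4.27 against 6.81 to 7.26), Stim1 (5.99 against 8.35 to 8.36), Ramp3 (4.34 against 5.80 to 6.0), Spsb1 (6.82 against 7.23 to 7.30) and Il4 (4.50 against 4.86 to 4.92). It was highest for Crem (5.61 against 4.89 to 4.99), Trim36 (6.03 against 5.51 to 5.54), Klf2 (11.61 against 11.18 to 11.22) and Csk (11.56 against 11.23 to 11.27). Replicate 3 was highest for Fosb (7.78 against 4.42 to 4.50), Rgs1 (8.16 against 6.74 to 6.89), Cd274 (10.26 against 9.38 to 9.46) and Nfkbid (9.80 against 9.13 to 9.23), and lowest for Cish (7.84 against 8.30 to 8.36). Replicate 2 was highest for Eef1e1 (7.82 against 7.21 to 7.31). Replicate 1 was highest for Bdh2 (4.65 against 4.27 to 4.31) and lowest, by little, for Zc3h12a (5.58 against 5.73 to 5.75), Idi2 (4.2 against 4.35 to 4.37) and Ccl1 (4.13 against 4.15).

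At 4 h replicate 4 was lowest for Shmt1 (5.24 against 7.61 to 7.73) and Myc (7.16 against 8.64 to 8.82) and highest for Hhex (5.40 against 4.98 to 5.0). Replicate 3 was lowest for Nsg2 (4.96 against 6.04 to 6.11), Tnfrsf25 (7.21 against 8.04 to 8.13), Gimap7 (7.89 against 8.67 to 8.77) and Selplg (8.64 against 9.24 to 9.35), and highest for Ifng (9.32 against 8.18 to 8.29) and Rars (10.19 against 9.72 to 9.77). Replicate 2 was lowest for Lad1 (6.86 against 8.08 to 8.26) and Spsb1 (6.24 against 6.89 to 6.97) and highest for Bcl2a1d (8.38 against 7.73 to 7.81) and Cdkn1a (8.34 against 8.28). Replicate 1 was lowest for Akr1c18 (6.36 against 7.09 to 7.23) and Mfsd2a (9.11 against 9.50 to 9.57) and highest for Bcl2l11 (10.34 against 9.49 to 9.56), Osm (8.29 against 7.80 to 7.88) and E2f2 (4.70 against 4.25 to 4.31). Of the 40 sets 13 spanned 1 log2 unit or more.

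The named genes whose 4 h response differed between genotypes in the limma fit (PM response minus the other, log2) were, against het, Il4 (2.29), Il12rb2 (1.70), Gbp11 (1.53), Spsb1 (1.5), Sft2d2 (1.35), Klhl6 (1.02), Abcb4 (0.86), Dnph1 (-0.75), Id1 (-1.44) and Pdgfb (-3.16). Against KO they were Il4 (2.49), Il3 (2.20), Lad1 (1.89), Jaml (1.57), Csf2 (1.34), Gbp11 (1.27), Gpr183 (1.23) and Idi2 (1.07) on the higher side. On the lower side they were Eml1 (-1.16), Fxyd5 (-1.18), Bdh2 (-1.20), Tiam1 (-1.29), Ephx1 (-1.34), Rcan3 (-1.45), Angptl4 (-1.72), Dhrs1 (-1.83), Akr1c18 (-2.19) and Cldn10 (-2.23). Il4, Il12rb2, Gbp11, Abcb4, Dnph1, Id1, Il3, Lad1, Csf2, Idi2, Eml1, Bdh2 and Akr1c18 were detected on no array of at least 1 group behind these values, so their sizes are those of the fit and not measured. Of all the differences listed only that of Il3 from KO passed in every alternative.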

How the results depend on the processing

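Scaling the arrays to a common median gave the lowest counts for 0 to 4 h, for 1 to 4 h and for the difference from KO. The 3875 calls between 0 and 4 h became 2271, with 869 up and 1402 down (2213 kept), the 3625 between 1 and 4 h became 1865 and the 28 differences from KO became 3; the median change of all genes moved from -0.02 to -0.10 and, against 1 h, from -0.02 to 0.09. Of the 3875, 2023 kept call and sign in every alternative that tests them. Leaving out 1 array at a time gave 3502 to 3722 calls for 0 to 4 h, 3200 to 3469 for 1 to 4 h, 6 to 20 for the difference from het and 9 to 27 for that from KO. The 10 differences from het became 20 with an offset of 50, 3 on the authors' table, 0 with only those groups in the fit (403 at an unadjusted p under 0.05), 51 with array weights, and 4 and 1 without replicate 3 or 4 throughout. The 28 from KO became 17 on the authors' table, 12 with only those groups, 47 with array weights, and 5 and 7 without replicate 3 or 4. With a replicate block there were 4438 calls for 0 to 4 h, with all 3875 kept, 4236 for 1 to 4 h, 46 against het and 65 against KO. Between PM 0 h and 4 h same-numbered arrays correlated at 0.438, 0.568, 0.085 and 0.679, so the third pair did not deviate together and not every array was closest to its own number. The cause of these shifts was not tested.

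Among the named genes Fos turned to -0.10 with array weights, and without 1 array it ran from -0.49 to 0.98. Trim36 was 0.39 as the mean of its probes, 0.0011 with array weights and 0.15 without replicate 4 in both groups, and -0.32 to 0.019 without 1 array. Angptl4 was -0.073 with median scaling and -0.069 to 0.28 without 1 array. These genes did not pass in the comparison with 0 h. Leaving out replicates 3 or 4 in both groups was chosen after seeing the data. The slide as a block was not run, since the files used here give no slide. Probes near background understate folds.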

Other observations

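Shares that moved in 3 further groups are given beside the 24% of all genes that rose and the 27.1% that fell. Of 16 measured caspases and apoptosis adaptors 6 rose (37.5%) and 5 fell (31.2%) between 0 and 4 h, 3 and 3 with median scaling. The inflammatory caspase gene Casp4 rose by 1.27, with 6.19, 5.86, 6.76 and 6.64 at 0 h and 7.50, 6.93, 8.09 and 8.0 at 4 h, and the death ligand Fasl by 1.36. The initiator of the mitochondrial pathway, Casp9, read 7.18, 7.53, 7.19 and 7.06 and then 5.87, 5.88, 5.60 and 5.80. Of 16 regulatory T cell genes 5 rose (31.2%, 8 genes with array weights) and 4 fell (25%), shares near those of all genes. The rises were Il2ra, Tnfrsf4, Ctla4 and Tnfrsf18, activation genes as well, and Swap70 (1.61), and among the falls was the integrin chain Itgae, detected on no 4 h array and at least 1.63-fold lower. Of 21 STAT and SOCS family genes 6 rose (28.6%) and 4 fell (19%, 2 genes without replicate 3 in both groups), also near the background, with the kinase gene Jak2 (1.68) up and the STAT inhibitor Pias3 (-1.38) down.

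Probes without a gene symbol were counted too. Of 647 kept, 158 rose and 148 fell, beside 24% and 27.1% of all genes tested.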
